A study of Mus musculus with 6 samples.

Results

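The genes described are 6 ligands of bone morphogenetic protein (BMP) signalling, Bmp2, Bmp3, Bmp4, Bmp5, Bmp6 and Bmp7, and 3 of the receptors, Bmpr1a, Bmpr1b and Bmpr2. They were chosen by gene symbol, and all 9 were found among the 19057 genes that the array names by a single symbol. The 9 genes are read by 18 probes, and the brightest probe of a gene over the 6 arrays was taken as its main probe. RNA came from CD-1 mouse embryos, an outbred stock for which the labels name no transgene or treatment, at embryonic day 13.5. It was hybridised to Illumina bead arrays of 1 colour. There were 3 arrays titled tooth germ (lower molar bud) and 3 titled oral tissue (mandible without tooth or bone). Each array held tissue pooled over several embryos, and arrays of the same number came from the same litter.

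The labels contradict each other on which arrays are tooth germ. By title 3 arrays are tooth germ, whereas by source name and tissue field the other 3 are. Groups are named by title throughout, and the sign of every difference turns if the other fields are right. Of the genes used to check the labels, Msx1, a homeobox gene of dental mesenchyme, was higher in titled tooth germ by 1.47 on the log2 scale (adjusted p = 6.3e-05). Shh, a ligand of dental epithelium, was higher by 0.78 (adjusted p = 0.0022). The muscle genes Myod1 and Acta1 fell, with differences of -1.47 and -1.94 (adjusted p = 1.6e-05 and 7.7e-05).

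BMP ligands are secreted dimers that bring together type I receptors, such as those encoded by Bmpr1a and Bmpr1b, and type II receptors, such as that of Bmpr2. The activated type I receptor phosphorylates Smad proteins, which enter the nucleus and regulate transcription. In the mouse molar, Bmp4 is made first by the dental epithelium and later by the condensing mesenchyme, where its expression depends on Msx1, and signalling between both layers is needed for the tooth to pass the bud stage.

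Of the 9 genes, Bmpr1b alone passed the test, and it was lower in titled tooth germ by 0.69 on the log2 scale. Bmp4 was higher by 0.31 and Bmp6 by 0.18, with all 3 arrays of titled tooth germ above all 3 of titled oral tissue, but neither passed without litter in the model. Bmp4 passed with litter as a block (adjusted p = 0.0434). For Bmp2, Bmp3, Bmp5, Bmp7 and Bmpr2 the 95% interval of the difference included 0. The threshold for a call was an adjusted p of 0.05 (limma with Benjamini-Hochberg adjustment over all 19057 genes). By that rule 1 of 9 members was called, against 5.81% of all genes. With litter as a block 2 of 9 were called, against 8.88% of all genes. Shares of 9 genes move in steps of a whole gene, so neither count is read as more than the background. The median difference of the 9 was 0.021, and that of all genes was 0.0026.

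**Figure D1:**
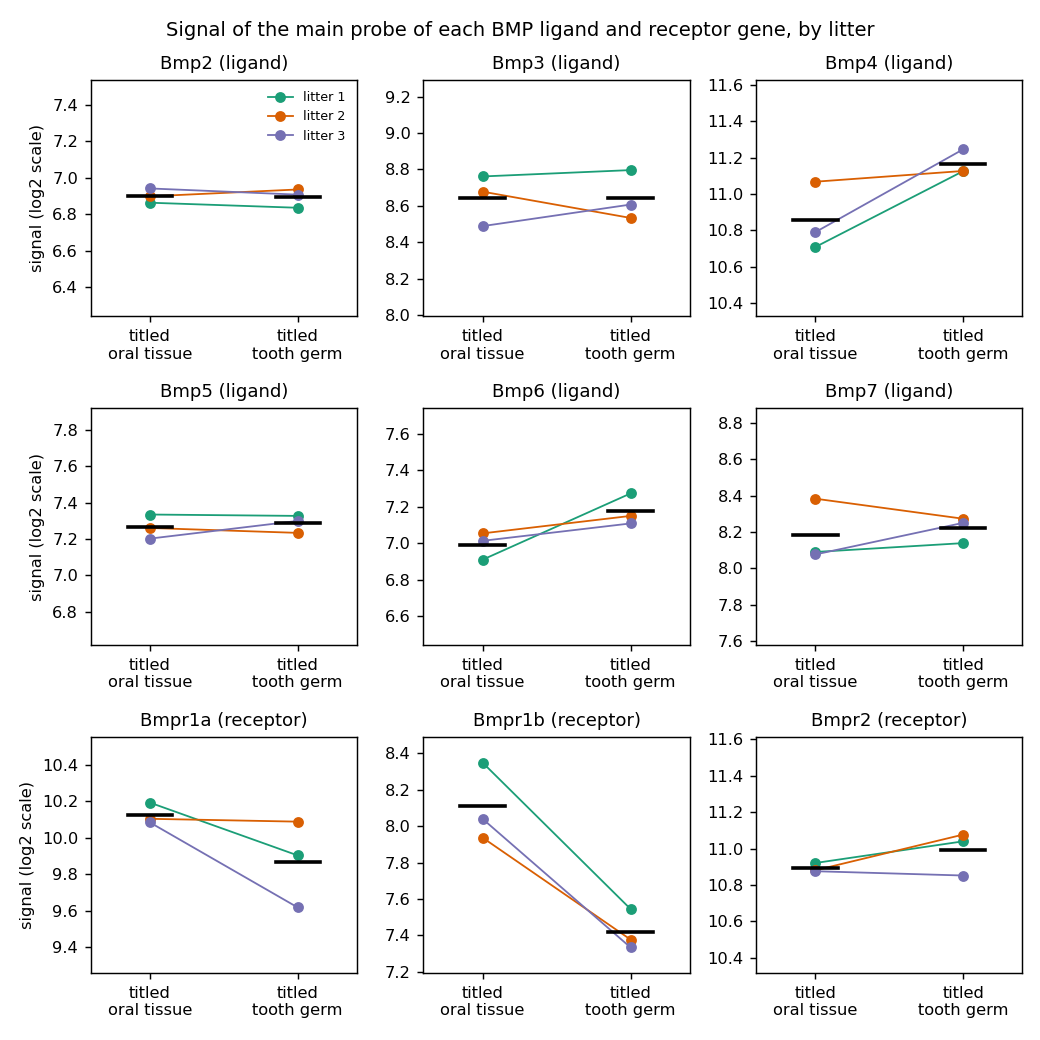
Signal on the log2 scale (vertical axes, each spanning the same range) of the main probe of each of the 9 genes in the 3 titled oral tissue and 3 titled tooth germ arrays. Points are single arrays, coloured lines join arrays of a litter, and black bars are group means; the Bmpr1b lines slope down in all 3 litters and the Bmp4 lines slope up, by only 0.059 in litter 2.

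Bmp4 and Bmpr1b are the members with the largest differences, in opposite directions, so the DNA just before their annotated starts is given here. Sequences are from RefSeq on the GRCm38.p6 build and hold the 250 bases before the start, read along the strand of the gene. Of the 9 members, 6 had such a sequence (Bmp4, Bmp5, Bmp6, Bmpr1a, Bmpr1b and Bmpr2). Bmp4 lies on the minus strand, and its window is chr14:46390670-46390919. Bmpr1b, also on the minus strand, has 3 annotated starts, and the one shown is the furthest upstream, chr3:141982265-141982514. Capitals mark matches, on either strand, to the GC box letters GGGCGG, the TATA box letters TATAAA, the letters TAATTG of an MSX-type homeobox core, and the letters GGCGCC of an element bound by BMP Smads.
Bmp4: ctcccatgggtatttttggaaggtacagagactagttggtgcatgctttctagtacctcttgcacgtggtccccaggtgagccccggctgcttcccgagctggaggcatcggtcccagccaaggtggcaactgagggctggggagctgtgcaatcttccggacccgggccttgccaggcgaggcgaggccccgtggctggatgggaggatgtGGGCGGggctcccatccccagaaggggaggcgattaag
Bmpr1b: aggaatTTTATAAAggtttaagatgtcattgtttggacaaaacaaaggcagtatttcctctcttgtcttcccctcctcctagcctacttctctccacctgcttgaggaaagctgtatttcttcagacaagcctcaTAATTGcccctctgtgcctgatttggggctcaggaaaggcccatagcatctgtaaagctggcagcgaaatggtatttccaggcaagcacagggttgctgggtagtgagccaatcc

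The Bmp4 window was 63.2% G and C with 11 CpG dinucleotides and held 1 GC box. The Bmpr1b window was 46.8% G and C with 1 CpG. It held 1 TAATTG match, and a TATAAA match in each orientation, which overlap as TTTATAAA. The other Bmpr1b starts, with 52.8% and 56.4% G and C, held none of the 4 motifs. Among 32851 windows of this length over all genes, the median was 52.4% G and C, 32.7% held a GC box, 12.4% a TATAAA, 7.17% a TAATTG and 9.59% a GGCGCC. The other receptor genes had the windows richest in CpG, with 36 for Bmpr1a (78.8% G and C, 4 GC boxes, 1 GGCGCC) and 22 for Bmpr2 (64.0%, 1 GC box, 1 GGCGCC). Bmp6 also had 22 CpG (68.8%, 1 GC box). Bmp5 was the poorest ligand window in G and C at 42.8%, with 4 CpG and none of the motifs. These matches describe letters and were not tied to any measured difference.

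Among the ligands, Bmp4, the main BMP signal of early tooth mesenchyme, read 10.71, 11.07 and 10.79 on the oral tissue arrays and 11.13, 11.13 and 11.25 on the tooth germ arrays (numbers 1, 2 and 3). The groups did not overlap, and oral tissue array 2 lay closest to the tooth germ arrays. Groups that do not overlap with titled tooth germ higher were found for 11.9% of all genes. The means were 10.86 ± 0.19 and 11.17 ± 0.069 (SD, n = 3), a difference of 0.31 (SE 0.098, 95% interval 0.095 to 0.53), or 1.24-fold, with adjusted p = 0.104. Within the litters the difference was 0.42, 0.059 and 0.46. Without oral tissue array 2 it was 0.42 and was called (adjusted p = 0.0223), as it was without both arrays of litter 2 (0.44, adjusted p = 0.0371). The dimmer Bmp4 probe read 7.40, 7.58 and 7.41 against 7.71, 7.66 and 7.71. It too kept the groups apart, with oral tissue array 2 the nearest, and differed by 0.23 (SE 0.062, adjusted p = 0.0643 over all probes). With litter as a block this probe passed (limma over all probes, adjusted p = 0.0387, with 6.48% of all probes called). In that same fit over all probes the main Bmp4 probe did not pass (adjusted p = 0.0574). Its call with litter as a block thus depends on adjusting over genes.

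Oral tissue array 2 also deviated from its group for several marker lists, not all of them towards the tooth germ arrays. Its median deviation from the titled oral tissue mean was 0.23 over 9 dental mesenchyme genes, against -0.26 and 0.029 for arrays 1 and 3, and -0.38 over 11 skeletal muscle genes, against 0.33 and 0.049. Both lie on the side of the tooth germ arrays. Over 6 osteoblast genes it deviated most, by 0.52 (arrays 1 and 3 by -0.15 and -0.32), and the median difference of that list was -0.56 in litter 2 against 0.38 and 0.55 in litters 1 and 3. Over 7 neuronal genes array 2 deviated by -0.24 (arrays 1 and 3 by 0.41 and 0.018). Over 7 macrophage genes it deviated by -0.14 (arrays 1 and 3 by 0.0032 and 0.11). Both lists were lower in titled tooth germ, so these deviations too lie on that side. Over 8 tendon and connective tissue genes, also lower in titled tooth germ, it deviated by 0.075, away from the tooth germ arrays. Arrays 1 and 3 deviated by 0.044 and -0.14 over that list, so array 3 deviated most there. The part of tissue content in the Bmp4 difference was not tested. In pooled tissue, fewer cells of a type and less RNA per cell cannot be told apart.

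Bmp6, a ligand of the same subgroup as Bmp5 and Bmp7, read 6.91, 7.05 and 7.01 on the oral tissue arrays and 7.27, 7.15 and 7.11 on the tooth germ arrays. These signals are close to the median of all values, 7.01, where a log-scale difference may understate a fold. The groups did not overlap, and the distance was largest in litter 1 (0.36, against 0.096 and 0.095 in litters 2 and 3). The difference was 0.18 (SE 0.052, 95% interval 0.070 to 0.30), with adjusted p = 0.0673. It was 0.33 after background subtraction (adjusted p = 0.112), and 0.096 without litter 1 (adjusted p = 0.477). It did not pass with litter as a fixed block (adjusted p = 0.0549) and passed with litter as a random effect (adjusted p = 0.0455).

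The remaining ligands showed overlapping groups. Bmp7, made by epithelium in many budding organs, read 8.09, 8.38 and 8.08 against 8.14, 8.27 and 8.25. Its difference of 0.037 had a 95% interval of -0.16 to 0.24 (adjusted p = 0.891), and its second probe differed by -0.0014 (95% interval -0.084 to 0.081). Bmp3, an atypical member that can oppose other BMPs, read 8.76, 8.68 and 8.49 against 8.80, 8.53 and 8.61, which are almost the same values in both tissues. Its difference was 0.0030 (95% interval -0.21 to 0.21, adjusted p = 0.993). Bmp5 read 7.33, 7.26 and 7.20 against 7.33, 7.23 and 7.30, with a difference of 0.021 (95% interval -0.093 to 0.14, adjusted p = 0.894).

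Bmp2, a ligand close to Bmp4 in sequence that the dental epithelium makes, read 6.86, 6.90 and 6.94 against 6.84, 6.94 and 6.91. It was the only member whose mean lay below the median signal of all probes, and its difference of -0.0080 (95% interval -0.083 to 0.067, adjusted p = 0.943) is that of a probe with little signal. Without detection p-values, which were not used here, whether this probe read Bmp2 above background is not known. Over the 6 ligands 0 were called by limma, 2 had an unadjusted p under 0.05 (Bmp4 and Bmp6, against 17.1% of all genes), and the median difference was 0.029.

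**Figure D2:**
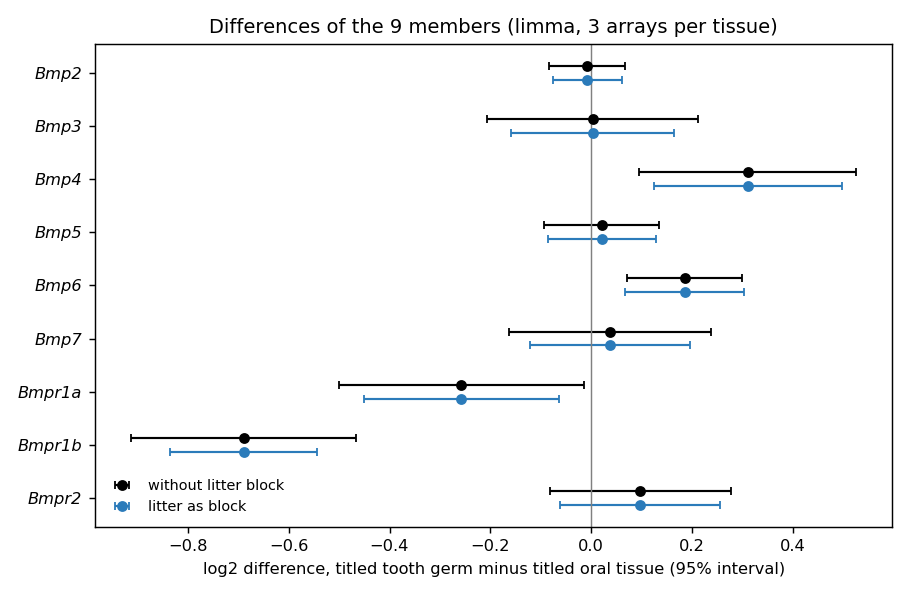
Log2 difference between titled tooth germ and titled oral tissue (horizontal axis) for the 9 genes (vertical axis), with 95% intervals from limma without litter in the model (black) and with litter as a block (blue), 3 arrays per tissue. Bmpr1b lies furthest from 0 at -0.69, and Bmp4 and Bmp6 lie above 0 with intervals that start at 0.095 and 0.070 without litter.

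Among the receptors, Bmpr1b, a type I receptor known for its part in digit cartilage, read 8.35, 7.94 and 8.04 on the oral tissue arrays and 7.54, 7.38 and 7.33 on the tooth germ arrays. Every tooth germ array lay below every oral tissue array, as for 11.2% of all genes. Oral tissue array 1 was the highest. The means were 8.11 ± 0.21 and 7.42 ± 0.11 (SD, n = 3). Bmpr1b fell by 0.69 (SE 0.10, 95% interval -0.91 to -0.47, adjusted p = 0.0015), so that titled oral tissue had 1.61 times the signal of titled tooth germ. The difference was -0.80, -0.56 and -0.71 in litters 1, 2 and 3.

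Bmpr1b has 4 probes, and they did not all show this. The second brightest read 7.84, 7.61 and 7.57 against 7.22, 7.14 and 7.10, again with no overlap, and fell by 0.52 (SE 0.071, adjusted p = 8.7e-04 over all probes, of which 4.18% were called). The other probes had mean signals under the median of all probes in both tissues. They differed by -0.0023 (adjusted p = 0.986) and -0.070 (adjusted p = 0.260). With the mean of the 4 probes the Bmpr1b difference shrank to -0.32 (adjusted p = 0.0059), and after background subtraction the main probe gave -0.95 (adjusted p = 0.0082).

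Genes with a profile like that of Bmpr1b over the 6 arrays were sought among 7266 genes in the brighter range (mean signal over the upper quartile of probes). The closest were Megf10, an engulfment receptor that muscle satellite cells make (Pearson's r = 0.9991), Kctd12, an auxiliary subunit of GABA-B receptors (r = 0.998), and Dner, a neuronal transmembrane protein (r = 0.996). They were picked as the highest values of that search over 6 arrays, so the r describes the choice. Megf10 fell by 1.33 (adjusted p = 8.5e-04), Kctd12 fell by 0.66 (adjusted p = 0.0026) and Dner fell by 0.96 (adjusted p = 8.5e-04). Marker lists of muscle, nerve, macrophages and connective tissue held genes that fell, as Bmpr1b did. Over all genes, 651 of 19057 fell. Of 11 skeletal muscle genes 10 fell, and the log2 of their summed signal was 14.63 to 15.45 in titled oral tissue and 12.96 to 13.32 in titled tooth germ. Of 7 neuronal genes 3 fell, with sums of 11.10 to 11.96 and 10.33 to 10.52, and oral tissue array 1 deviated most, by a median of 0.41. Of 7 macrophage genes 6 fell (sums of 11.81 to 12.01 and 11.34 to 11.48), and of 8 tendon and connective tissue genes 4 fell (14.02 to 14.12 and 13.65 to 13.87). In litters 1, 2 and 3 the median difference was -2.00, -1.59 and -1.93 for muscle and -0.51, -0.22 and -0.40 for macrophages. For connective tissue it was -0.46, -0.45 and -0.41. For nerve it was -1.48, -0.085 and -1.04, so the neuronal list barely differed in litter 2. Of 8 cartilage genes 0 fell and 1 rose, and the sums overlapped (11.84 to 11.91 and 11.65 to 11.96). No list has a defining marker at 0, since the scale has none. Of these lists, Myf5 among muscle genes, Tubb3 and Nefl among neuronal genes, Tnmd among tendon genes, and Matn1, Matn3 and Comp among cartilage genes had mean signals under the median of all probes. The part of these cell types in the Bmpr1b difference was not tested.

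Bmpr1a, the type I receptor that the dental epithelium needs to pass the bud stage, read 10.19, 10.10 and 10.08 on the oral tissue arrays and 9.90, 10.09 and 9.62 on the tooth germ arrays. Tooth germ array 2 lay within the oral tissue values, and tooth germ array 3 was the lowest. The difference was -0.26 (SE 0.11, 95% interval -0.50 to -0.015), with an unadjusted p = 0.0392 and adjusted p = 0.254 (limma). It was -0.13 without tooth germ array 3. The dimmer Bmpr1a probe read 8.29, 8.26 and 8.18 against 8.32, 8.31 and 8.26 and differed by 0.051 (95% interval -0.094 to 0.20), so the probes of this gene had opposite signs and neither was called.

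Bmpr2, the type II receptor, read 10.92, 10.88 and 10.88 against 11.04, 11.08 and 10.85. Tooth germ array 3 lay below all oral tissue arrays, the other tooth germ arrays above them. The difference was 0.097 (SE 0.082, 95% interval -0.083 to 0.28, adjusted p = 0.623). Its 3 dimmer probes differed by -0.072, -0.022 and -0.013 and were not called, with adjusted p-values from 0.536 to 0.846 over all probes. The platform annotation gives a RefSeq transcript for each dimmer Bmpr2 probe and none for the main probe.

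**Figure D3:**
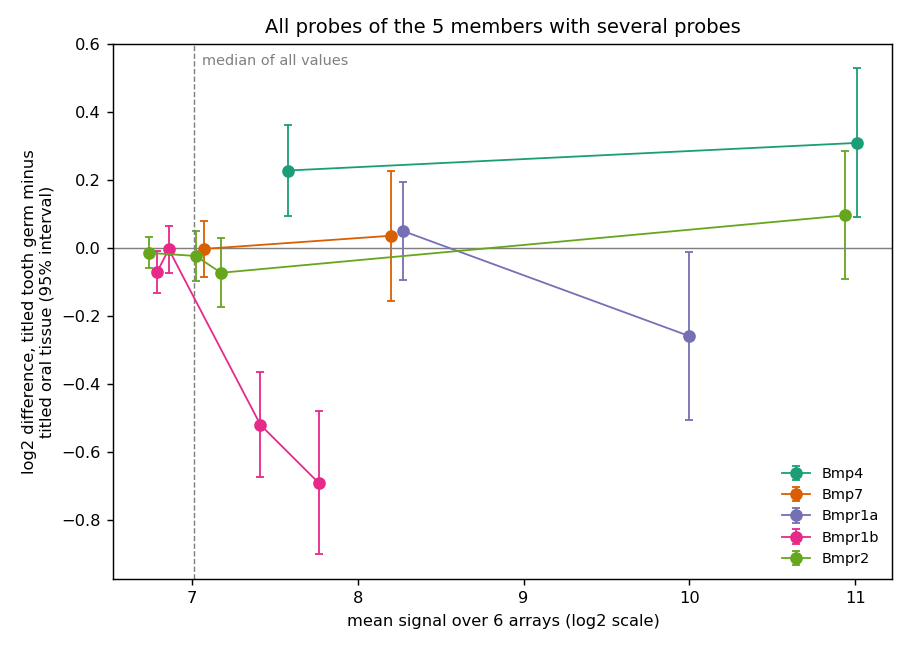
Log2 difference between titled tooth germ and titled oral tissue with its 95% interval (vertical axis, limma over all probes) against the mean signal of the probe over 6 arrays (horizontal axis, log2 scale), for every probe of the 5 members with several probes. Lines join probes of a gene and the dashed line is the median of all values; both Bmpr1b probes right of that line lie at -0.52 or lower and both left of it between -0.070 and -0.0023.

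By their main probes, 4 of the 9 members had the same sign in all 3 litters (Bmp4 and Bmp6 up, Bmpr1a and Bmpr1b down), against 41.3% of all genes. The main Bmpr1a probe differed by only -0.016 in litter 2. The dimmer Bmpr1a probe was higher in titled tooth germ in all 3 litters, by 0.032, 0.050 and 0.071. The groups did not overlap for 3 members (Bmp4, Bmp6 and Bmpr1b), against 23.1% of all genes. With 3 pairs, an exact sign-flip test cannot go below p = 0.25, and an exact permutation test of 3 against 3 arrays cannot go below p = 0.10, so no such test was used for single members. The genes closest to the profile of Bmp4, by the same search as for Bmpr1b, were Vps33b, a vesicle sorting gene (r = 0.996), Mapk13, a p38 kinase (r = 0.987), and Dcbld1 (r = 0.987). They differed by 0.18, 0.33 and 0.21, and none was called by limma (adjusted p = 0.283, 0.0585 and 0.179). Mapk13 passed with litter as a block (adjusted p = 0.0183).

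The other genes of the pathway and its wider family, among them the activin subunit gene Inhba, were taken from lists of 58 genes by role. Of the 58, 54 were measured. Of the 54 measured, 8 rose, 6 fell and 40 were not called, and the median difference was 0.00051. Over all genes 5.81% were called. With litter in the model as a block, 8 were higher and 8 lower, and 8.88% of all genes were called. Mean signals were under the median of all probes for 17 of the 54, which limits what those genes can show. These lists were drawn up with earlier results on these arrays known, so their counts are a description.

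Among 10 other ligands of the family, Inhba, the activin A subunit, was the only gene called without litter in the model. It rose by 1.98 (SE 0.14, adjusted p = 1.8e-05), from 8.82 ± 0.24 to 10.80 ± 0.27 (SD, n = 3), and 7 of these ligands had mean signals under the median of all probes. Gdf10, a ligand related to Bmp3, had a difference of -0.52 (SE 0.14), with titled tooth germ lower in all 3 litters and no overlap. It missed the threshold without litter in the model (adjusted p = 0.0508) and passed with litter as a block (adjusted p = 0.0020). Among 10 other receptors and co-receptors 0 rose and 3 fell, with a median of -0.11. Rgma, a BMP co-receptor of the repulsive guidance family, fell by 0.79 (SE 0.090, adjusted p = 2.4e-04). Tgfbr3, the co-receptor betaglycan, fell by 0.72 (SE 0.091, adjusted p = 5.5e-04). Rgmb, a relative of Rgma, fell by 0.26 (adjusted p = 0.0222), and 9 of 21 alternatives did not call it. None of 3 Smad genes was called by limma, 0 had an unadjusted p under 0.05, and Smad5, which carries the BMP signal, had the smallest p (difference 0.15, adjusted p = 0.398). Among 6 proteases Furin, which cleaves BMP precursors, rose by 0.32 (adjusted p = 0.0455), and 13 of 21 alternatives did not call it, among them the mean of all its probes (0.10, adjusted p = 0.413). Bmp1, a protease that cleaves Chrd, differed by -0.28 (adjusted p = 0.160), and passed with litter as a block (adjusted p = 0.0222). That was the only 1 of 21 alternatives that called Bmp1, and its difference ranged over them from -0.36 to -0.062.

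The 14 secreted antagonists and modulators moved both ways, with 4 higher, 3 lower and a median of 0.0085. Over all genes 5.81% were called. Chrdl1, Chrdl2, Fstl3 and Cer1, none of them called, had mean signals under the median of all probes. Sostdc1, an inhibitor of BMP and Wnt that marks tooth buds, rose by 0.94 (SE 0.091, adjusted p = 8.2e-05). Bmper, which modulates BMP outside the cell, rose by 0.73 (SE 0.094, adjusted p = 5.9e-04), and Chrd, which binds BMPs and keeps them from receptors, fell by 0.77 (SE 0.11, adjusted p = 0.0015). The others called, named after their values were seen, were Fst (0.73, adjusted p = 0.0015) and Grem1 (0.37, adjusted p = 0.0317) on the higher side and Kcp (-0.45, adjusted p = 0.0262) and Nbl1 (-0.41, adjusted p = 0.0118) on the lower. The calls of Grem1, Kcp and Nbl1 were lost in 11, 10 and 4 of 21 alternatives.

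Among 11 response genes 2 rose, where 5.81% of all genes were called in either direction, and the median was 0.15. Smad7, Bambi and Msx2, none of them called, had mean signals under the median of all probes. Msx1, which BMP4 induces in dental mesenchyme, read 10.78, 11.41 and 11.09 on the oral tissue arrays and 12.67, 12.66 and 12.36 on the tooth germ arrays, and oral tissue array 2 was the highest of its group, as for Bmp4. Hey1, a transcriptional repressor that answers to Notch and BMP, rose by 0.43 (SE 0.092, adjusted p = 0.0153), and 5 of 21 alternatives did not call it. The 4 Id genes, textbook targets of Smads, differed by 0.0031 to 0.26. None of them was called by limma, and 2 had an unadjusted p under 0.05, against 17.1% of all genes.

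**Figure D4:**
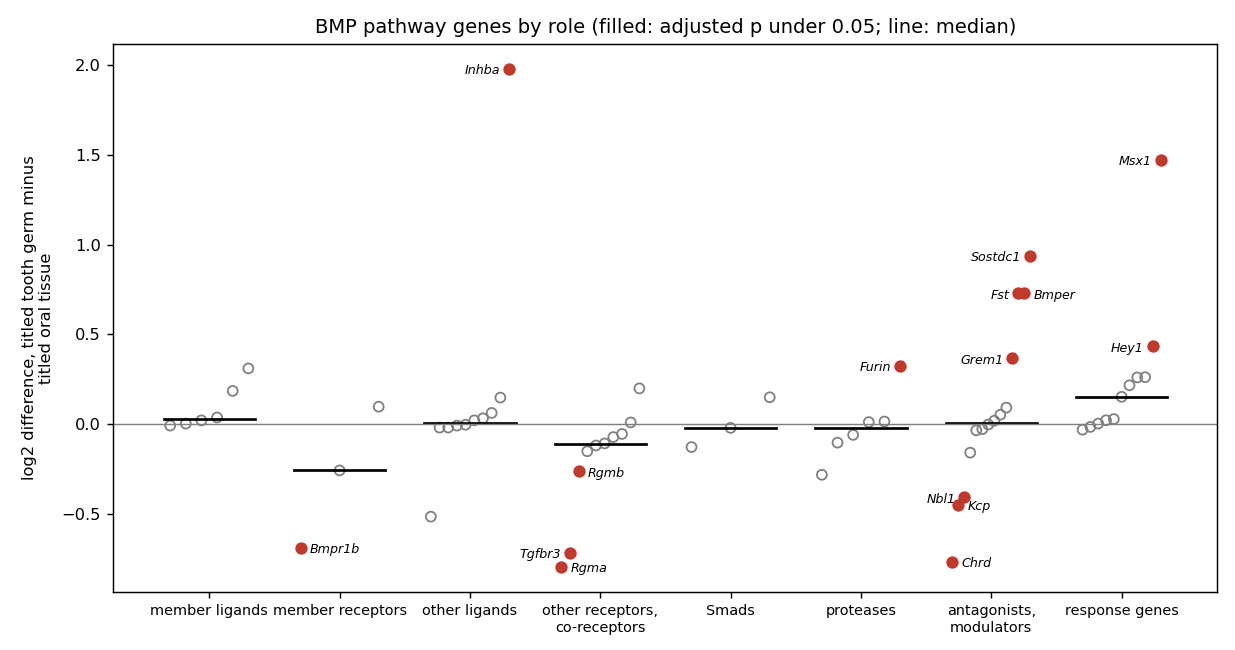
Log2 difference between titled tooth germ and titled oral tissue (vertical axis) for the members and each measured gene of the other lists, grouped by role (horizontal axis). The lists span the BMP pathway and its wider family, including the activin subunit gene Inhba. Filled points are genes with an adjusted p under 0.05, open points are the others and black lines are medians of each role; the called genes lie on both sides of 0, from -0.79 for Rgma to 1.98 for Inhba.

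Marker lists placed the members in their tissue context. Over all 19057 genes 456 rose and 651 fell. Of 14 surface epithelium genes 9 rose and 1 fell, of 10 dental epithelium genes 6 rose, and of 9 dental mesenchyme genes 5 rose (medians 0.44, 0.31 and 0.51). Msx1 and Inhba in the dental mesenchyme list were also counted above, as a response gene and as another ligand. Msx1 and Shh also served to check the labels, so these counts are not separate results. Of 8 endothelial genes 1 fell and of 4 Schwann cell genes 1 fell. None of 6 osteoblast genes was called by limma, and 2 had an unadjusted p under 0.05, against 17.1% of all genes. Of these lists, Epcam, Edar, Kdr, Bglap and the Schwann cell genes Foxd3, Erbb3 and Fabp7 had mean signals under the median of all probes. Pearson's r over all probes was 0.995 to 0.997 between arrays of a tissue and 0.988 to 0.993 across tissues. With 3 arrays per tissue, their number limits the precision.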

How the data were processed

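The authors deposited log2-scale signals per probe from 6 arrays, and lumi 2.8.0 was used, per the submitters' processing notes. Values ran from 6.61 to 14.88. The sources used here do not give whether they are plain log2 or variance-stabilised, nor how background was treated. The sorted columns of the deposited table differed by at most 0.000827, so it was already quantile normalized.

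Of 45281 probes, 34885 had 1 symbol in the platform annotation. The brightest probe per gene was tested with limma 3.58.1 in R 4.3.3 (lmFit, eBayes with a trend, 4 residual degrees of freedom), adjusted over 19057 genes. Further probes were fitted over all 34885. Same-litter arrays deviated together (correlations 0.389, 0.227 and 0.258, against -0.251 to -0.0749 for other combinations, over 12150 genes), so the numbers pair the arrays. Deviations were taken from the mean of each tissue, so positive same-litter values tend to make the other combinations negative. Litter as a block left 2 residual degrees of freedom.

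Genes named beside the members were, per role list, up to 3 called genes of largest difference (else the smallest p), and for likeness the 3 genes of largest r. Outside this rule, Gdf10 and Bmp1 were added by name, as were the further called antagonists Fst, Grem1, Kcp and Nbl1. Members and lists were chosen with earlier results of these data known. Tested on simulated data for this comparison (19057 genes, 200 changed), the fit recovered 67.2%, 92.5% and 100% of differences of 0.5, 1 and 2. It called 11 unchanged genes. The changed genes were drawn from those above the median signal, and the simulated noise held no litter effect. Differences smaller than 0.5, such as those of Bmp4, Bmp6 and Bmpr1a, were not simulated. Alternatives are given in the closing section. Those for genes that are no members were added after seeing the data.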

Additional observations from a re-analysis of the deposited data

How the results depend on the processing

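Bmpr1b was called in the same direction in 21 of 21 alternatives, with differences from -0.95 to -0.32 and adjusted p up to 0.0235. Bmp4 was called in 3 of 21 (fixed litter block at 0.31, and without oral tissue array 2 or litter 2; range without an array or a litter 0.24 to 0.44). Bmp6 was called in 4 of 21: litter as a random block, robust shrinkage and an adjusted p under 0.10 (each 0.18), and array weights (0.20). Members called thus numbered 2 under the fixed and the random replicate block, robust shrinkage, array weights and the looser threshold, and 1 to 2 without an array or a litter; called member probes numbered 4 at the looser threshold and 2 to 4 without an array or a litter. The block changed no other call of a member. Members with 1 sign in all remaining litters numbered 4 to 7 when a litter was left out. Signs turned only for uncalled members: Bmpr2 was -0.0024 with the mean of all probes, and without an array or a litter Bmp2 ranged from -0.031 to 0.021, Bmp3 from -0.074 to 0.077, Bmp5 from -0.017 to 0.055 and Bmp7 from -0.031 to 0.14. Over all genes 1107 were called, 1693 with the fixed block, 601 at an adjusted p under 0.01, and 549 to 1025 without an array or a litter (549 without litter 1, 668 without litter 3, 734 without tooth germ array 2). Bmp2 gave no value once dim genes were removed, and probes were not counted for the mean of all probes. Except where the alternative uses fewer arrays or another threshold, the cause of these changes was not tested. Bmp2, Bmp5 and Bmp6 had low signals, where a log-scale difference may understate a fold, which limits what they can show.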
